A study of Caenorhabditis elegans with 2 samples.

Results

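The regions described here are binding sites of CEBP-1 that lie between genes but near one. Of the 5982 optimal peaks, 711 (11.9%) were chosen by position alone. The summit, the base with the highest signal in a peak, lay inside no annotated gene of any biotype. It also lay outside every protein-coding promoter window, which reached from the annotated 5′ end 1000 bp upstream and 200 bp downstream, and at most 2500 bp from the nearest protein-coding 5′ end. Within the optimal list no measured value of the peaks entered this choice. The list itself held the 5982 strongest pooled peaks, so every member had already passed a cutoff on signal in these replicates. The 711 regions are called members below. Beside them stand all 5982 optimal peaks and the most similar positional classes, which were 559 intergenic peaks beyond 2500 bp and 1242 promoter peaks whose summit was 151 to 1000 bp upstream of a single protein-coding gene.

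The sites were mapped by ChIP-seq, in which DNA bound by a protein is precipitated from sheared chromatin and sequenced. Whole Caenorhabditis elegans were taken, of strain OP563, unc-119(tm4063) III; wgIs563, at the young adult stage, 63 hours after starved L1 larvae had been synchronized. The samples were not separated by sex. All animals carried the transgene wgIs563, which adds GFP and FLAG to the C-terminal end of CEBP-1, and an antibody against GFP served for the precipitation. There was 1 group with 2 biological replicates, numbered 3 and 7 in the labels, and no untagged strain is analysed here. The signal comes from a mixture of all tissues, so more cells with CEBP-1 at a site and more CEBP-1 per cell cannot be told apart. Read counts are not part of the lists, and the depth of either replicate is unknown.

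CEBP-1 is a basic leucine zipper (bZIP) protein of the CCAAT/enhancer-binding protein family. Proteins of this family bind DNA as dimers, each partner reading one side of a short, nearly symmetrical site with a core of TTNCGNAA. In C. elegans, CEBP-1 is known from axon regrowth downstream of the DLK-1 and p38 kinases and from stress and immune responses. In the compact C. elegans genome most regulatory sequence lies close to the gene it controls, and sites outside promoters include enhancers, the regions behind 3′ ends and the promoters of non-coding genes.

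The bases at the summits are shown first because the sequence content of the members is followed through the rest of the values. Each line gives the 101 bp window centred on the summit of a member in the ce11 build, read 5′ to 3′ on the plus strand of the RefSeq WBcel235 sequence and named after the nearest protein-coding gene. Capitals mark TTNCGNAA or its form TTGCGAAA, called octamer A below, the octamer AGACGCAG, called octamer B, and the E-box CACGTG, each searched on both strands. TTTCGCAA is octamer A on the other strand, and every octamer A is also a match of TTNCGNAA. The 9 were among the strongest members with a match of TTNCGNAA or CACGTG.
sid-3, X:17184551-17184651: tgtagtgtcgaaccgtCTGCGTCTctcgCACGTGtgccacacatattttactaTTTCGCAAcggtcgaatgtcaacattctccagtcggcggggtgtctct
F19B10.1, II:3684622-3684722: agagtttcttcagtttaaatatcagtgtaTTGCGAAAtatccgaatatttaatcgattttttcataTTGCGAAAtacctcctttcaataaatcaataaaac
F14F9.4, V:5131550-5131650: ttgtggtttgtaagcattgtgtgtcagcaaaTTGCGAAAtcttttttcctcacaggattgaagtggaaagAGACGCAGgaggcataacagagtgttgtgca
acs-4, III:7165847-7165947: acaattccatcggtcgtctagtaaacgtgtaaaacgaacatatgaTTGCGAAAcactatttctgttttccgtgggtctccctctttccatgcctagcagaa
mdh-2, III:6606124-6606224: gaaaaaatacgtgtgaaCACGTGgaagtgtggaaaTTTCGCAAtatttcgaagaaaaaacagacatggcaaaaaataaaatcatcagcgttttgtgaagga
nhr-45, X:4662436-4662536: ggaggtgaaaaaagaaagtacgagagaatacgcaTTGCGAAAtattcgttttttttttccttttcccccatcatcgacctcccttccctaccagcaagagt
pitr-1, IV:7391666-7391766: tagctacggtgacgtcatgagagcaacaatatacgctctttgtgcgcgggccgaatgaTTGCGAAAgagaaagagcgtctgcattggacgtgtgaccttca
nhr-243, V:18901663-18901763: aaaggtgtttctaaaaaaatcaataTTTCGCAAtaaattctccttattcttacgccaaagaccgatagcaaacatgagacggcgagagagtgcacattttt
acl-4, X:2071524-2071624: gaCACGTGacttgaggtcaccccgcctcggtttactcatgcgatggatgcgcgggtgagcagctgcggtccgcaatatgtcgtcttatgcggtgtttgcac

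Of these 9 windows, all but that of acl-4 held octamer A. The windows were chosen for a match of TTNCGNAA or CACGTG, so this is no measure of how common octamer A is. F19B10.1 had 2 copies on the same strand. In sid-3 and F14F9.4 octamer A stood beside octamer B, and in sid-3 and mdh-2 it stood beside an E-box. The acl-4 window held an E-box near its left edge and no match of the C/EBP core. Which gene a region acts on was not tested, and a region is named after the nearest gene only to identify it.

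Signal is given as relative signal, which is the authors' signal value of the strongest summit within 100 bp in a replicate's list, divided by the median of that value over all optimal peaks in that replicate (204 in replicate 3, 112 in replicate 7). It is 1 for the median optimal peak by construction. Means are given ± SD over the 2 replicates. With 1 group and 2 replicates no difference between classes of regions was tested, regions are not replicates of a condition, and intervals on shares (Wilson, 95%) cover counting error only.

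The members were neither the strongest nor the weakest peaks. Their median relative signal was 0.989 (quartiles 0.674 and 1.66), with a median of 1.01 in replicate 3 and 0.966 in replicate 7. The same median was 0.946 for the more distant intergenic peaks, 1.16 for the promoter peaks and 1.01 for all optimal peaks. In the pooled list the authors' signal value of the members ran from 148 to 6649, with a median of 300.1. Of the 300 strongest optimal peaks 29 were members, and of the 25 strongest 2 were, those of hsf-1 and pfn-1. With all optimal peaks cut by rank into 4 sets of nearly equal size, the members numbered 156, 201, 198 and 156 from the strongest set to the weakest.

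A summit within 100 bp was listed for 680 members in replicate 3, for 656 in replicate 7 and for 627 in both. Of the 711, 442 (62.2%, interval 58.5 to 65.7) were among the top 5982 peaks of both replicates. Over all optimal peaks this share was 60.2%, which lies inside the interval of the members. Replicate 3 held 88.0% of the members among its top 5982 and replicate 7 held 71.3%, while 20 members (2.81%) were in neither. Across the members listed in both, the signal had a Spearman correlation of 0.615 between replicates, which is taken across regions of the same pair of libraries. The 84 members missing from at least 1 list had pooled signal values from 148 to 994, with a median of 227, and take no part in orders by mean relative signal. The strongest of them, near Y54G11A.4 and looked up after its value was seen, ranked 622 among the optimal peaks.

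The strongest member lay 1812 bp upstream of hsf-1 (WBGene00002004), which encodes the heat shock transcription factor. It covered I:11964543-11965257 (ce11), between hsf-1 and a pseudogene transcribed the other way, and ranked 11 among all optimal peaks. Its relative signal was 21.8 in replicate 3 and 19.8 in replicate 7 (mean 20.8 ± 1.46, n = 2), and the promoter window of hsf-1 itself held no optimal summit. Next came the peak 1260 bp upstream of pfn-1 (WBGene00003989), a profilin, which controls actin assembly. It covered I:12920390-12921222 and read 17.03 and 17.9 (17.5 ± 0.648). For both genes the replicates stood close together, and both windows held octamer A.

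The following members had about the signal of 10 median peaks. F19B10.1 (WBGene00017583) read 9.59 in replicate 3 and 14.8 in replicate 7 (12.2 ± 3.70), and its summit lay 155 bp past the end of that gene and 1488 bp from its 5′ end. The peak 1779 bp upstream of sid-3 (WBGene00002207), a tyrosine kinase needed for efficient uptake of double-stranded RNA, read 11.9 and 10.9 (11.4 ± 0.654). F14F9.4 (WBGene00017467) read 10.1 and 11.8, with the summit 1141 bp upstream. The replicates differed most for F19B10.1, whose window held 2 copies of octamer A.

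Several of these genes act in metabolism. For acs-4 (WBGene00018152), an acyl-CoA synthetase, the summit lay 1941 bp upstream with 10.4 and 10.6 (10.5 ± 0.11). For mdh-2 (WBGene00003162), a malate dehydrogenase, it lay 370 bp past the 3′ end with 8.90 and 10.5 (9.69 ± 1.10). For acl-4 (WBGene00018657), an acyltransferase, it lay 1130 bp upstream with 10.2 and 8.92 (9.54 ± 0.877). The peak nearest to pitr-1 (WBGene00016739), a phosphate transporter, read 7.997 and 7.77, but its flanking genes were T12B3.8, 1297 bp from the summit, and T12B3.9, 547 bp from it. The peak of gst-39 (WBGene00001787), a glutathione S-transferase, read 5.84 and 6.58 and lay between gst-39 and gst-31. In acl-4 and pitr-1 replicate 3 was the higher one, and in the other 3 it was replicate 7.

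Others lay near regulators. The nuclear hormone receptor genes nhr-45 (WBGene00003635) and nhr-243 (WBGene00013584) had summits 2168 and 1176 bp upstream. The nhr-45 peak read 8.91 and 10.4 (9.64 ± 1.03), and the nhr-243 peak read 7.32 and 7.98 (7.65 ± 0.464). The peak of bec-1 (WBGene00000247), the Beclin of autophagy, read 7.08 and 7.26, and it lay in the promoter window of a snoRNA gene, T19E7.29, as well as 1122 bp upstream of bec-1. The peak 1443 bp upstream of vhp-1 (WBGene00006923), a phosphatase of the JNK and p38 kinases, read 6.72 and 6.98 (6.85 ± 0.183). In all 4 replicate 7 was slightly the higher one.

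Of the 20 strongest members 15 held octamer A, and in 12 of these 15 replicate 7 was higher. Over all optimal peaks 14.9% held octamer A. Of those listed in both replicates, 721 of 834 (86.5%) were higher in replicate 7. The 5 of the 20 strongest members without octamer A were acl-4, sup-26, F20B6.9, F13E6.1 and T27A8.7. All but F13E6.1 of these 5 were higher in replicate 3. In 3 of them the replicates differed by 1.5-fold or more. The peak of sup-26 (WBGene00006331), an RNA-binding protein, read 9.44 in replicate 3 and 5.05 in replicate 7. F20B6.9 (WBGene00017632) read 9.33 and 4.31, and T27A8.7 (WBGene00206527) read 8.53 and 3.79. All 20 were among the top 5982 of both replicates, which their choice by mean relative signal over the same replicates favours. Upstream of the nearest 5′ end lay 17, and the means of all 20 ran from 6.13 (gldi-3) to 20.8.

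**Figure D1:**
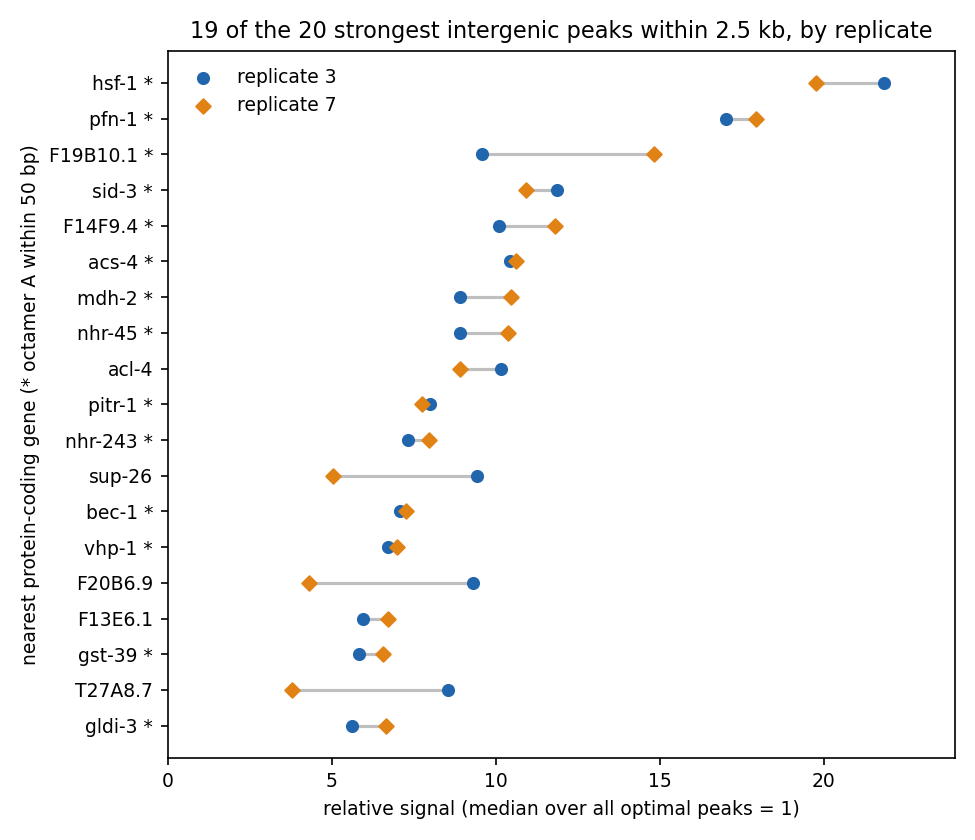
Relative signal (horizontal axis, median optimal peak = 1) of 19 of the 20 strongest members in replicate 3 (circles) and replicate 7 (diamonds), with a line joining the 2 values and an asterisk for octamer A within 50 bp of the summit. The hsf-1 and pfn-1 peaks stand above the rest, and sup-26, F20B6.9 and T27A8.7, which lack octamer A, show a wide gap with replicate 3 on the right.

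In place, the members lay mostly upstream of the nearest 5′ end. Of the 711, 532 (74.8%, interval 71.5 to 77.9) were upstream and 179 downstream, beyond the end of the gene. The rule itself leaves less room downstream, since a summit there must lie past the whole gene, so density is given per megabase (Mb) of sequence that meets the rule. That sequence came to 9.87 Mb (9.84% of the genome) and held 72.0 members per Mb. All optimal peaks came to 59.7 per Mb of genome, and the intergenic peaks beyond 2500 bp to 47.4 per Mb of the 11.8 Mb open to them.

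Upstream, density was 84.2 per Mb at 1001 to 1500 bp (254 members), 65.9 at 1501 to 2000 bp (149 members) and 72.6 at 2001 to 2500 bp (129 members). Downstream it lay between 58.2 and 66.9 per Mb in every distance range. Density was thus highest in the range next to the promoter window, and past it the values did not order by distance. Median distance was 1521 bp (quartiles 1220 and 1996). By chromosome, density was 115 per Mb on III, 110.1 on I, 70.3 on II, 65.2 on IV, 60.03 on X and 49.8 on V, the order in which III and I led being also that of all optimal peaks (80.7 and 70.3 per Mb).

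**Figure D2:**
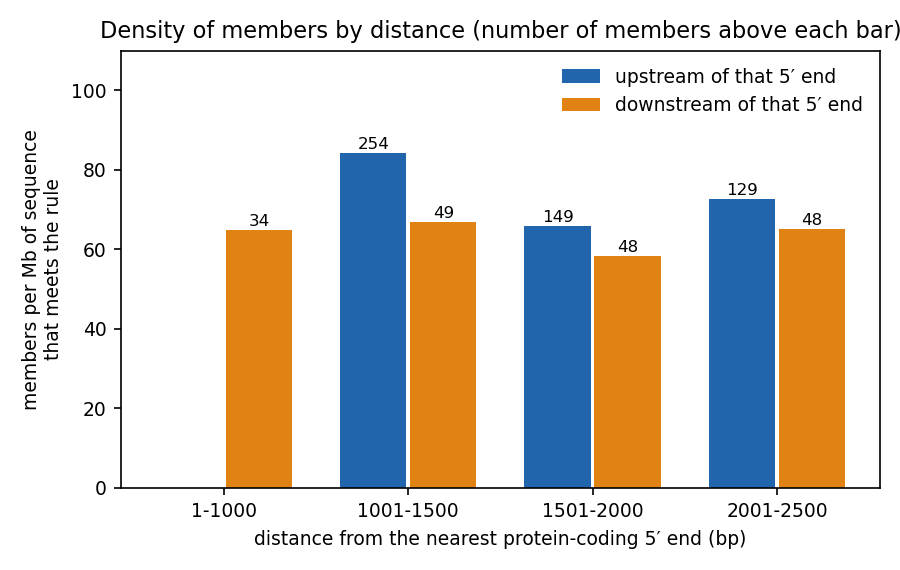
Members per Mb of sequence that meets the rule (vertical axis), by distance of the summit from the nearest protein-coding 5′ end (horizontal axis), upstream and downstream of that end, with the number of members above each bar. The tallest bar is 1001 to 1500 bp upstream (84.2 per Mb); summits up to 1000 bp upstream fall in the promoter window and are no members.

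The regions at the limits of the rule were as follows. Just inside 2500 bp stood K07D4.2 at 2497 bp (mean relative signal 1.55), nhr-88 at 2489 bp (3.55) and F46H6.5 at 2486 bp (0.573). Just outside stood ZK899.6 at 2504 bp (6.04), gdh-1 at 2521 bp (1.39) and F46G11.4 at 2522 bp (2.68). On the promoter side hmit-1.3 at 1001 bp (1.09), EGAP1.1 at 1004 bp (1.65) and acer-1 at 1007 bp (1.65) were members. ZK185.5 at 1000 bp (0.609), fbxb-58 at 999 bp (6.12) and C23H4.6 at 998 bp (4.23) counted as promoter peaks.

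The gap between the 2 genes around a member had a median of 2826 bp. In 429 members both neighbours were transcribed in the same direction, in 168 they pointed away from each other and in 114 towards each other. Median relative signal was 1.00, 1.01 and 0.918 in that order. A protein-coding 3′ end lay within 500 bp of 205 members, 129 of which were among the 179 downstream ones. These 205 differed from the other 506 in how the replicates compared. Their median log2 ratio of replicate 3 to replicate 7 was -0.18, with 98 of 175 higher in replicate 7, against 0.24 and 171 of 452 in the others.

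The members had 643 distinct nearest genes, 3.22% of the 19973 protein-coding genes. Of these genes 54 had 2 members and 7 had 3. The nearest gene of 237 members (33.3%, interval 29.97 to 36.9) also had an optimal summit in its own promoter window, which held for 206 (32.0%) of the 643 genes. Among all protein-coding genes 14.9% had such a summit. With promoters of 500 bp the share of members was 21.7%, against 11.9% of all genes, and with the strongest 50% of the optimal peaks it was 19.6%, against 9.16%. Of the members, 192 had another optimal summit within 1000 bp and 56 shared their interval with another summit, so neighbouring regions do not count as independent sites.

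Among the genes with 3 members, 6 were C04A11.2, M163.1, T09F3.2, W04D12.1, dbn-1 and mxl-3. They are named here after their values were seen. For mxl-3, a Max-like basic helix-loop-helix protein, the members stood on both sides of the gene: 2165 and 1301 bp downstream (2.27 ± 1.28 and 1.45 ± 0.301) and 1596 bp upstream (0.877 ± 0.273). The strongest mxl-3 peak held an E-box, the type of site that Max proteins bind, and also a match of TTNCGNAA. It read 3.18 in replicate 3 and 1.36 in replicate 7.

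Non-coding genes also lay near some members, since the rule leaves out only protein-coding promoters. The promoter window of a non-coding gene or pseudogene held 136 members (19.1%), among them 91 with an ncRNA, 17 with a tRNA, 14 with a piRNA, 13 with a pseudogene and 12 with a snoRNA. The same share was not computed for all optimal peaks or for the sequence that meets the rule. It therefore cannot be called high or low. Small nucleolar RNAs guide the modification of ribosomal RNA, and tRNA genes are transcribed by RNA polymerase III. Members at snoRNA promoters had a median relative signal of 2.80 and those at tRNA promoters 1.42, against 0.984 in the 575 members at no such promoter. It was 1.08 at ncRNA, 0.840 at piRNA and 0.916 at pseudogene promoters, closer to that value. Of the 12 members at snoRNA promoters 4 held octamer A, a sequence that went with higher signal and with replicate 7, and its part in their values was not tested. All 4 lay nearest to bec-1 or M163.11, and the bec-1 summits shared an interval, so they do not count as independent sites. Next to a snoRNA gene stood the peak nearest to W03C9.1, with its summit 60 bp from the snoRNA W03C9.9 and values of 3.01 in replicate 3 and 7.86 in replicate 7. The peak nearest to din-1, 97 bp from the snoRNA ZK20.9, read 3.08 and 3.23. Replicate 7 was higher in 9 of 12 members at snoRNA promoters and in 12 of 15 at tRNA promoters, but in 211 of 504 members at none. These members were picked out after their values were seen. Counts for optimal peaks at such promoters outside the members are not given here, so this cannot be called particular to the members.

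The C/EBP core was present at the summits more often than beside them. Within 50 bp of the summit TTNCGNAA was found in 172 members (24.2%, interval 21.2 to 27.5), against 6.05% of windows of equal length 300 bp to each side. All optimal peaks held it in 23.0%. Its form TTGCGAAA, octamer A, was found in 96 members (13.5%, interval 11.2 to 16.2) and in 0.985% of the flanks; all optimal peaks held it in 14.9%, the more distant intergenic peaks in 11.5% and the promoter peaks in 14.2%. The members thus stood near the background of the whole list in both sequences. Summit and flank windows also differed in base composition. The median GC content of the members was 42.57% at the summit and 33.66% in the flanks, and its part in any excess over the flanks was not tested.

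The perfectly symmetrical C/EBP site TTGCGCAA was rare, with 5 members (0.703%) against 0.281% in the flanks. These were the peaks nearest to K07D4.2, plin-1, F25H2.7, arv-1 and F27D9.12, looked up after the matches were seen, whose relative signals ran from 0.334 to 1.55. None of the members with the symmetrical site held octamer A. The C/EBP and ATF composite site TGATGCAA was found in 4 members, the AP-1 site TGACTCA in 18 (2.53%, flanks 1.48%), the CRE TGACGTCA in 8 (1.13%, flanks 0.985%) and the GATA site AGATAA in 39 (5.49%, flanks 5.13%). TTACGTAA, the site of PAR bZIP proteins, was found in 0 of 711 members, with an upper bound of 0.537%. For these other bZIP sites and for GATA the interval at the summit held the flank value or began just above it, at 0.301% for TTGCGCAA and at 1.61% for AP-1. Over all optimal peaks TTGCGCAA was found in 0.669%, TGATGCAA in 0.819% and AP-1 in 1.8%. The CRE was found there in 1.0%, TTACGTAA in 0.0669% and GATA in 5.0%. Each of these shares lay inside the interval of the members. In the larger counts of the whole list TTGCGCAA and AP-1 lay above their flanks (0.167% and 1.13%).

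Further sequences stood out from the flanks, which were not matched to the summits in GC content. Octamer B, AGACGCAG, was found in 57 members (8.02%, interval 6.24 to 10.3) and 0.633% of flanks, with 6.69% over all optimal peaks. The E-box CACGTG, bound by basic helix-loop-helix proteins, was found in 52 (7.31%, interval 5.62 to 9.46) and 1.97% of flanks, with 5.52% over all optimal peaks. The repeat GAGAGAGA was found in 56 (7.88%, interval 6.12 to 10.1) and 1.76% of flanks, with 4.88% over all optimal peaks. The E-box and GAGA intervals thus lay above the share of all optimal peaks, which include the members, and a test was not made. With members built from the top peaks of replicate 7 alone the E-box share was 5.47%, no higher than the 5.52% of the pooled optimal list. The share over all top peaks of replicate 7 was not computed, so that value has no matching background. The distant intergenic peaks held the E-box in 7.33% and the GAGA repeat in 6.26%. At least 1 of octamer A, octamer B, E-box and GAGA repeat was found in 238 members (33.5%), while 473 held none of the 4.

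**Figure D3:**
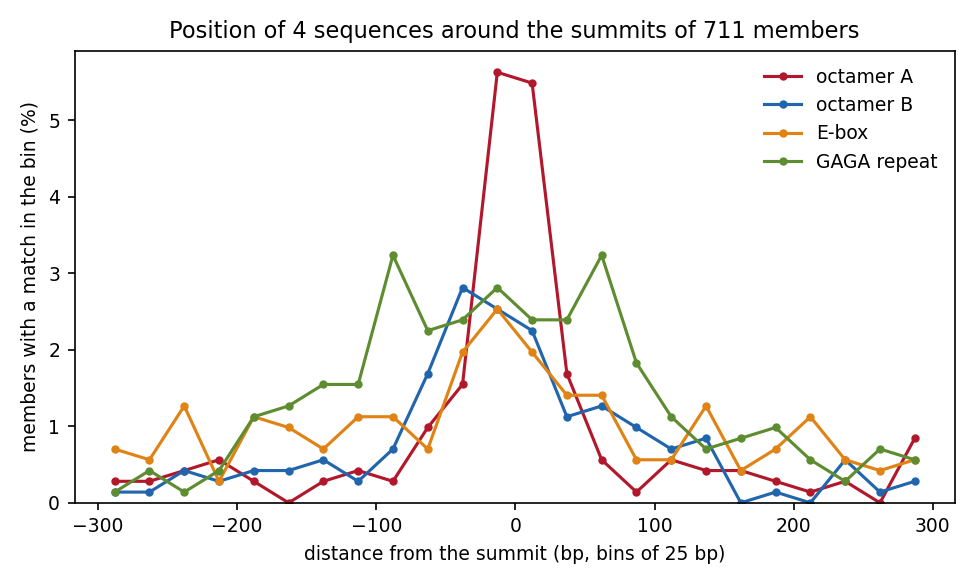
Share of the 711 members (vertical axis, %) with a match of octamer A (TTGCGAAA), octamer B (AGACGCAG), the E-box (CACGTG) or the GAGA repeat (GAGAGAGA) in bins of 25 bp by distance from the summit (horizontal axis). Octamer A is concentrated in the bins on each side of the summit, while the GAGA repeat is spread over about 100 bp to each side.

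Octamer A lay close to the summit. Its centre was within 25 bp in 79 of the 96 members (82.3%), at a median of 16 bp. Read on its own strand, it was preceded by A in 67 members and followed by T in 66, and 45 had both, as in the F19B10.1 and nhr-45 windows shown above. A second copy within 50 bp was found in 4 members. The median GC content of windows with octamer A was 37.6%, against 42.6% without it.

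Members with octamer A had more signal. The octamer came from an earlier search over these same peaks, so this link is no independent evidence. Their median relative signal was 2.44 (1.72 in replicate 3, 2.69 in replicate 7), against 0.935 without it (0.958 and 0.863). Octamer A was found in 59 of the 178 strongest members (33.1%, interval 26.6 to 40.4) and in 8 of the 177 weakest (4.52%, interval 2.31 to 8.66). In the 2 sets of 178 between these it was found in 7.87% and 8.43%. The other matches of TTNCGNAA, in 76 members, had a median relative signal of 0.963. For octamer B the shares ran from 10.7% in the strongest set to 7.34% in the weakest, and those of the E-box and the GAGA repeat showed no ordering by signal beyond their intervals. Over all optimal peaks the medians were 2.46 with octamer A and 0.917 without it.

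**Figure D4:**
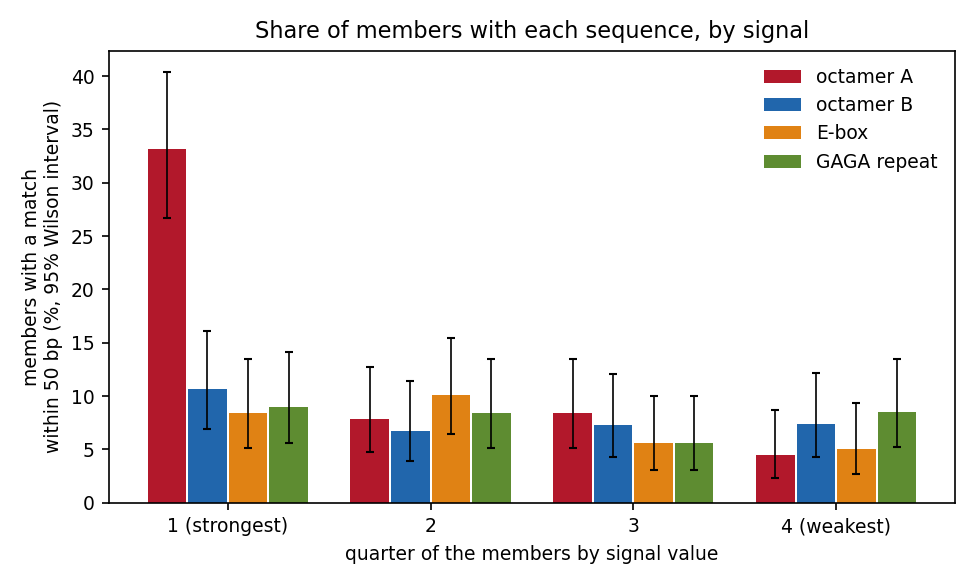
Share of members with each sequence within 50 bp of the summit (vertical axis, %), in 4 sets of members ordered from the strongest to the weakest signal value (horizontal axis); bars carry 95% Wilson intervals. Only the octamer A bar of the strongest set (33.1%) has an interval clear of all the other bars.

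The replicates were unequal in a way that went with sequence. Of the 627 members listed in both, 358 had the higher relative signal in replicate 3 and 269 in replicate 7. With octamer A, 78 of 92 (84.8%) were higher in replicate 7, and the median log2 ratio of replicate 3 to replicate 7 was -0.55. Without it 191 of 535 (35.7%) were, with a median of 0.30. Among these, members with another match of TTNCGNAA also leaned to replicate 7, with 43 of 70 and a median of -0.17. Within the 178 strongest members 49 of 58 members with octamer A and 28 of 114 without it were higher in replicate 7. The GAGA repeat went the other way, with a median of 0.73 and 6 of 51 (11.8%) higher in replicate 7. Over all optimal peaks the GAGA values were 0.46 and 61 of 266 (22.9%). Octamer B also went that way, with 0.44 and 6 of 52 (11.5%) in the members and 0.47 and 69 of 357 (19.3%) over all optimal peaks. For the E-box the values were 0.54 and 9 of 43 (20.9%), and 0.51 and 67 of 287 (23.3%) over all optimal peaks. The windows also differed in base composition. Median GC content was 37.6% with octamer A, 42.1% with the E-box, 45.5% with the GAGA repeat and 49.5% with octamer B. Its part in the replicate ratios was not tested.

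At the extremes the pattern was the same. Of 102 members at least 2-fold higher in replicate 3, 0 held octamer A and 15 held the GAGA repeat. Of 72 at least 2-fold higher in replicate 7, 24 (33.3%) held octamer A and 1 held the GAGA repeat. Over all optimal peaks 721 of 834 peaks with octamer A (86.5%) and 1605 of 4417 without it (36.3%) were higher in replicate 7, shares close to those of the members. On the X chromosome, which supplied 16.2% of the listed peaks of replicate 3 and 9.91% of those of replicate 7, members without octamer A had a median log2 ratio of 0.43, against 0.28 on the autosomes. With 2 replicates it cannot be told which of them departs.

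**Figure D5:**
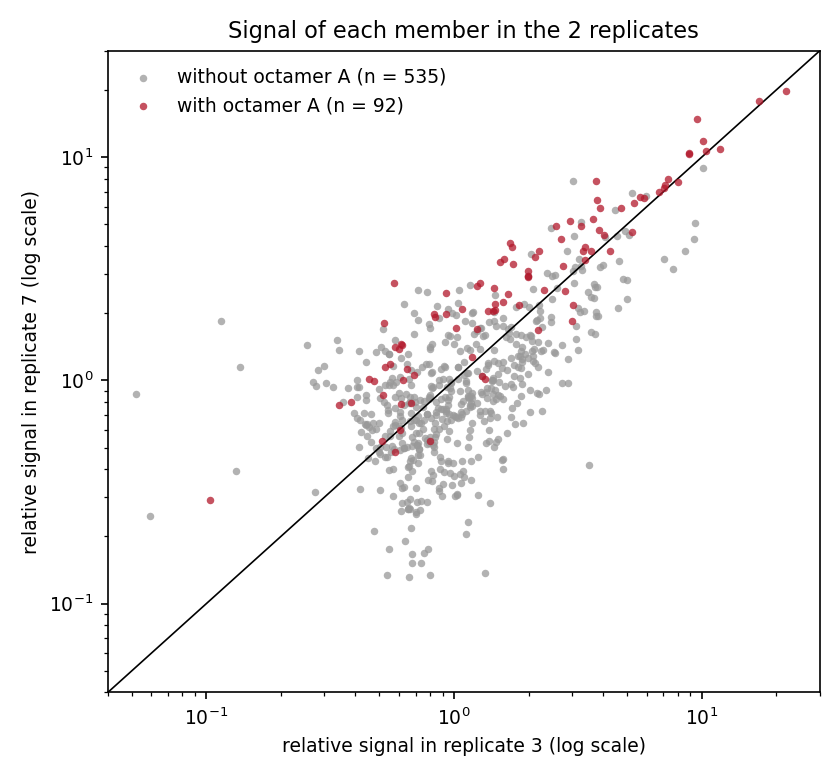
Relative signal in replicate 3 (horizontal axis) and replicate 7 (vertical axis), both on log scales, for the 627 members listed in both; red points hold octamer A (n = 92), grey points do not (n = 535), and the line marks equal values. Most red points lie above the line (78 of 92), and most grey points lie below it.

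The most unequal members were looked up after their values were seen. In replicate 3 the peak 1234 bp upstream of F13C5.1 read 1.33 against 0.137, and that near F09E10.1, 80 bp from the non-coding gene tts-1, read 3.52 against 0.417. The other way round, the peak 1229 bp upstream of mtm-3, a myotubularin phosphatase, read 0.0522 in replicate 3 and 0.871 in replicate 7. The peak 40 bp past the end of ndk-1, a nucleoside diphosphate kinase, read 0.115 and 1.84. That of rpl-21 read 0.137 and 1.14, and that of rps-17 read 0.254 and 1.44, 161 and 3 bp past the ends of these ribosomal protein genes. The peak 2154 bp upstream of pop-1, the TCF factor of Wnt signalling, read 0.573 and 2.73 and held octamer A.

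Nearest genes were also counted by function on 20 lists, against the 3.22% of all protein-coding genes that were nearest to a member. Among transcription factors, 5 of 28 bZIP genes (17.9%) were nearest to a member, as were 21 of 274 nuclear hormone receptor genes (7.66%), 4 of 41 basic helix-loop-helix genes (9.76%), 10 of 119 other transcription factor genes (8.40%, chiefly GATA, forkhead, Ets and T-box) and 2 of 100 homeobox genes. These shares depend on how much intergenic sequence surrounds the genes, which was not matched, and no list was tested. Of the bZIP genes, zip-5 had the strongest member, 1293 bp upstream with 2.09 and 2.56 (2.32 ± 0.337). That of zip-11 lay 2282 bp downstream of its 5′ end with 2.53 and 1.34, and that of zip-12 lay 2420 bp upstream with 1.01 and 0.696. None of the 5 bZIP members held octamer A.

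Beyond nhr-45 and nhr-243, the next nuclear hormone receptor was nhr-84, 1330 bp upstream with 4.57 and 4.45 (4.51 ± 0.0848). Of the 24 members near these receptors, 15 were in the top 5982 of both replicates and 2 held octamer A. Among helix-loop-helix genes hif-1, the hypoxia-inducible factor, had a summit 1991 bp upstream with 4.58 in replicate 3 and 2.10 in replicate 7 (3.34 ± 1.75). The peak 1821 bp upstream of mml-1, a Myc and Mondo-like factor, read 1.999 and 1.07 and held an E-box. The Ets factor gene ets-5 read 1.98 and 2.93, its summit lying 15 bp from a non-coding gene. That of hbl-1, a Hunchback-like factor of developmental timing, read 2.18 and 1.68 with octamer A. The homeobox genes were unc-62, a Meis factor (0.604 and 1.03), and dsc-1 (0.676 in replicate 3, not listed in replicate 7).

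Stress and signalling genes followed. Of 37 genes of the p38, JNK and DLK-1 pathways 6 (16.2%) were nearest to a member. After vhp-1 the strongest were mek-1, a kinase kinase of these cascades, 1090 bp upstream with 2.21 and 2.17 (2.19 ± 0.0316), and tir-1, the adaptor upstream of the p38 cascade, 1183 bp upstream with 0.884 and 1.13. Of 61 heat shock and chaperone genes 3 were nearest to a member (4.92%), though 24 (39.3%) had a promoter summit. These were hsp-1, an HSP70 (2.04 and 3.70, 57 bp past the gene), cct-4, a chaperonin subunit (1.26 in replicate 7, not listed in replicate 3), and hsp-16.48, a small heat shock gene (0.271 and 0.982). The hsp-16.48 summit lay between 2 genes annotated under that symbol, so reads may not be assignable to 1 of them. Developmental signalling genes had 7 of 137 (5.11%), led by akt-2, a kinase of insulin signalling (3.67 and 2.70), mom-5, a Frizzled receptor (2.80 and 2.53, with octamer A), and pdk-1, the kinase upstream of AKT (2.40 and 1.47).

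In muscle and actin genes 6 of 68 (8.82%) were nearest to a member. Beside pfn-1, these included the second profilin gene pfn-2, 1399 bp upstream with 3.04 and 3.09 (3.06 ± 0.0385), and hum-1, an unconventional myosin, 1513 bp upstream with 3.28 and 3.12. All 9 members of the list were in the top 5982 of both replicates. Among synaptic genes 8 of 174 (4.60%) were, led by snb-1, the synaptobrevin of synaptic vesicles (1188 bp upstream, 2.23 and 2.04), aex-6, a Rab27 GTPase (1.63 and 1.56), and egl-3, a proprotein convertase for neuropeptides (1.75 and 1.04). Of axon guidance and adhesion genes 6 of 115 (5.22%) were, among them unc-33, a CRMP protein (1071 bp upstream, 2.04 and 1.58), unc-51, a ULK kinase (2.35 and 0.903), and clr-1, a receptor tyrosine phosphatase (1.28 and 1.72). Neuropeptide and insulin-like genes had 5 of 145 (3.45%), led by ins-37 with 3.21 and 3.50.

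Ribosomal protein genes had 12 of 83 (14.5%), and 68 (81.9%) of all of them had a promoter summit. Of their 13 members 11 lay downstream, past the end of the gene, and all 10 that were listed in both replicates were higher in replicate 7 (median log2 ratio of replicate 3 to replicate 7 -1.26). The strongest were rps-6, 105 bp past the gene, with 0.718 in replicate 3 and 2.54 in replicate 7, rps-19, 984 bp downstream of its 5′ end, with 0.689 and 2.01, and rps-25, 1046 bp upstream with octamer A, with 1.24 and 1.71. Only 1 of the 13 held octamer A. Members within 500 bp of a protein-coding 3′ end, of any gene, were also higher in replicate 7 in 98 of 175. The part of sequence or of position in the excess at ribosomal protein genes was not tested.

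In lipid metabolism 10 of 161 genes (6.21%) were nearest to a member, with cpt-1, a carnitine palmitoyltransferase (2481 bp upstream, 3.24 and 2.02), and plin-1, the perilipin of lipid droplets (1.61 in replicate 3, not listed in replicate 7), after acs-4. Of membrane transport genes 8 of 303 (2.64%) were, led by the ABC transporter mrp-8 (3.39 and 3.95, with octamer A), the ABC transporter abt-4 (2.001 and 2.13) and the bestrophin best-19 (1.78 and 1.46). Detoxification genes had 3 of 190 (1.58%), with ugt-44 (0.941 and 0.657) and cyp-35A4 (0.945 in replicate 3 alone) after gst-39. The lists with the lowest shares were chemoreceptors with 2 of 1365 (0.147%, str-56 and srz-83), immune effectors with 1 of 362 (0.276%, clec-91), collagens with 1 of 175 (0.571%, col-106) and histones with 1 of 82 (1.22%, hil-3). Of these 5 peaks that of str-56 was the strongest (2.47 and 4.81), and its summit lay 57 bp from a snoRNA gene and 110 bp from nhr-102.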

How the data were processed

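The authors deposited peak lists of ChIP-seq with a GFP antibody in the ce10 and ce11 builds: 30000 peaks for each replicate and for both pooled, and 5982 optimal peaks after thresholding by the irreproducible discovery rate (IDR), as the deposited text files state. Each peak's signal value is the authors' own, computed relative to a control. The peak caller and the IDR threshold are not given in the sources used here. The ce10 lists were not used. The optimal list equalled the 5982 strongest pooled peaks, and all peaks lay within the WBcel235 chromosome lengths.

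Genes came from Ensembl release 115 and sequence from RefSeq (both WBcel235), with 5′ ends as in the gene records. Summits, the rule, the matching of summits within 100 bp and 11 motifs on both strands were computed with Python 3.11.15, pandas 2.3.3, numpy 2.4.6 and scipy 1.17.1, and the steps were checked on simulated data. Replicates 3 and 7 form 1 group. Nothing in the labels beyond the biological replicate numbers says how the cultures were kept apart.

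The members and the lists were chosen with earlier results of these data known. Octamers A and B came from an earlier search over these same peaks. Their excess at the summits and their links with signal and with replicate are therefore no independent evidence. Some symbols were removed from the gene lists, because they did not belong there, after first counts were seen. Named were the 20 members with the highest mean relative signal, up to 3 per list and up to 3 on each side of each limit of the rule. Members named beyond this are marked as chosen after their values were seen. The values of 1 nearest gene among the strongest members are not reported here.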

Additional observations from a re-analysis of the deposited data

How the results depend on the processing

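All 10 summary values were recomputed under up to 14 alternatives, which gave 100 values. Of these 70 stayed within the interval or spread of the value in the report (within 1.5-fold for the number of members) and 30 did not. None changed which of upstream and downstream was the more common. No paired analysis was possible because there is 1 group.

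Built from the top peaks of 1 replicate alone, the members numbered 676 to 739. Their median relative signal was 1.03 to 1.05, and the share upstream was 70.9% to 75.9%. The share in both top lists was 61.3% to 65.8%. Such members are in the top list of their own replicate by construction, so this is only the share in the other top list. It is not the same measure as the share in the report. TTNCGNAA was found in 20.8% to 26.9%, octamer A in 12.2% to 16.9%, the E-box in 5.47% to 7.31% and the GAGA repeat in 7.99% to 9.20%. The nearest gene had a promoter summit in 29.3% to 35.99%, and median distance was 1522 to 1538 bp. Without replicate 3 octamer A was the more common and the E-box the less common one.

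Promoters of 500 bp gave 1069 members, a median signal of 1.04, a median distance of 1217 bp, 82.4% upstream and 21.7% with a promoter summit at the nearest gene. Transcript 5′ ends gave 70.5% upstream and 37.7% with a promoter summit at the nearest gene. Limits of 2000 and 3000 bp gave median distances of 1358 and 1686 bp. The strongest 50% of the optimal peaks gave 357 members, a median signal of 0.933, 89.9% in both top lists, 29.97% with TTNCGNAA, 20.45% with octamer A and 19.6% with a promoter summit at the nearest gene. Summits matched within 50 and 200 bp gave 54.4% and 66.4% in both lists, and the top 10000 gave 78.5%. Scaling to the mean gave a median signal of 0.583. Motifs within 100 bp gave 30.1% for TTNCGNAA, 11.0% for the E-box and 14.2% for the GAGA repeat. These alternatives change the regions, the scale or the window by construction. Unknown depth limits what a missing summit says.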
